A study of Arabidopsis thaliana with 12 samples.

Results

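The pericentromeric regions of the 5 nuclear chromosomes of Arabidopsis thaliana were examined as a set of expression loci. A locus was counted as pericentromeric when it lay wholly within fixed windows of the TAIR10 genome, at 14.3 to 16 Mb on chromosome 1, 2.7 to 5.4 Mb on chromosome 2, 12 to 15.5 Mb on chromosome 3, 2.8 to 5 Mb on chromosome 4 and 11 to 14.5 Mb on chromosome 5. The windows covered 13.6 Mb and held 2912 of the 31788 loci measured, with 222, 658, 782, 470 and 780 loci on chromosomes 1 to 5. RNA-seq was done on whole 14-day-old seedlings of the mutants pkl, clf and lhp1 and of wild type (WT), with 3 libraries per genotype and 12 in all. The labels name no allele, ecotype or insertion for any mutant and do not say whether libraries of a genotype came from separate cultures, so the spread behind the deposited p-values may be technical. Each table of the authors set 1 mutant against the same WT values, so the comparisons share their control and are not independent. Expression is given as FPKM (fragments counted per unit of transcript length and scaled to the mapped fragments of the library), with 1 value per genotype and locus. No value therefore carries a replicate error, and the read depth behind the values is unknown.

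Pericentromeric DNA is largely packed as constitutive heterochromatin, which is rich in transposon remnants and pseudogenes and is held silent mainly by DNA methylation and H3K9 methylation. The mutated genes act in another repressive system. CURLY LEAF (CLF) is the enzyme of a Polycomb complex that methylates histone H3 to H3K27me3, LIKE HETEROCHROMATIN PROTEIN 1 (LHP1) reads this mark, and PICKLE (PKL) moves nucleosomes as a remodeller of the CHD3 type. The question put to these tables was how many pericentromeric loci were silent in WT and expressed in a mutant.

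Some of the loci and promoters described below are shown first. Sequences are from the RefSeq TAIR10.1 assembly, read 5′ to 3′ on the strand given, with positions counted from 1. The first set holds 3 loci listed at 0 FPKM in WT and at 1 FPKM or more in a mutant. AT5G35510 (chr5:13699830-13700036, plus strand, 207 bases) is annotated as a TIR-NBS-LRR class disease resistance gene, and AT1G41875 (chr1:15650172-15650405, 234 bases, shown on the plus strand because its identifier matched no reference gene) carries no annotation. For the defensin-like gene AT5G33355 the first 300 bases from the start codon are shown (chr5:12599319-12599618, plus strand). In these 3 sequences, capitals mark bases that lie in a run of 31 bases found more than once in the reference genome.
AT5G35510: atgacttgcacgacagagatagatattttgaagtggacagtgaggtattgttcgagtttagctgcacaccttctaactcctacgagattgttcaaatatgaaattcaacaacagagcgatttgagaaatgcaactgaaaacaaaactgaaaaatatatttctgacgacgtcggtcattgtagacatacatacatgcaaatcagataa
AT1G41875: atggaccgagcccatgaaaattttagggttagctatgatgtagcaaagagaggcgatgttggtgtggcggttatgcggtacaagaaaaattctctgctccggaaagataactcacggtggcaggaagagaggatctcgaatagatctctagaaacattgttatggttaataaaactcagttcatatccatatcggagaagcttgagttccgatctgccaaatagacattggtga
AT5G33355: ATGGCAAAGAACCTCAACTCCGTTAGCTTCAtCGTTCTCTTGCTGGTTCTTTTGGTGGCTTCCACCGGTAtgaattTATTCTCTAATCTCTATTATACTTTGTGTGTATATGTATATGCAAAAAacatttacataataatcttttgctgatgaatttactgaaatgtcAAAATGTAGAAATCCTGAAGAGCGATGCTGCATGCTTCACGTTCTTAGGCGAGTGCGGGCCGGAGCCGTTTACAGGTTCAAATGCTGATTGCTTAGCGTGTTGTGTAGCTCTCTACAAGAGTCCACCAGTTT
The first pair held no repeated run, whereas 249 of the 300 bases printed for AT5G33355 were repeated. The second set holds promoters (250 bases before to 50 bases after the annotated gene start) of 3 loci whose values changed in at least 2 mutants. They belong to the pseudogene AT5G35935 (chr5:14089842-14090141), the serine carboxypeptidase-like gene SCPL43 (AT2G12480, chr2:5072607-5072906) and the Sadhu retroelement SADHU3-2 (AT3G42658, chr3:14750245-14750544), all on the minus strand. Capitals mark matches on either strand to the motifs GAGAGA and AAACCCTA (the telobox), chosen because elements of these kinds are known from Polycomb recruitment in Arabidopsis.
AT5G35935: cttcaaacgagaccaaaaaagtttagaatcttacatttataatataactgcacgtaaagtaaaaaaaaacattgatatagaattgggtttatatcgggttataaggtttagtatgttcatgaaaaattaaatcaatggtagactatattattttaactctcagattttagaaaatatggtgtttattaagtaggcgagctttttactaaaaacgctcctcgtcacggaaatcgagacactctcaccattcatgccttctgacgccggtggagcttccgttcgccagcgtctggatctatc
SCPL43: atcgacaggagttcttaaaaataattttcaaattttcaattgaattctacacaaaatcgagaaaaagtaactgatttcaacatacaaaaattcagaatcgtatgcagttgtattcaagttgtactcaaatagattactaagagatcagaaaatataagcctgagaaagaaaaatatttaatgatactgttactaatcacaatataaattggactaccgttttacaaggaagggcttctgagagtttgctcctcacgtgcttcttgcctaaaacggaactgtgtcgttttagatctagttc
SADHU3-2: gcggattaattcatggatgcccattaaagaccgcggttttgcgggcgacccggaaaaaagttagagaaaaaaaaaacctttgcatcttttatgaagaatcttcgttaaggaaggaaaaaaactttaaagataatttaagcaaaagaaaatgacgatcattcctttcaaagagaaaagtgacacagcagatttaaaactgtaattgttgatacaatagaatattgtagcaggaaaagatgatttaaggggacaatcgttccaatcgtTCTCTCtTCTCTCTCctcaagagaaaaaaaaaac
Of these 3 promoters only that of SADHU3-2 held a match, to GAGAGA on the opposite strand, in 14 bases. Among 3161 genes in the windows, 24.3% of promoters held GAGAGA and 5.19% the telobox, against 28.9% and 6.27% of 34738 other nuclear genes. Over all 37899 promoters the shares were 28.5% and 6.18%. A match is a description of the letters in this window and says nothing on binding.

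Most loci of the pericentromeric windows were listed at 0 FPKM in every genotype. A total of 2397 of the 2912 loci (82.3%) were listed at 0 in all of pkl, clf, lhp1 and WT, against 5995 of the 28876 other loci (20.8%). The loci at 1 FPKM or more numbered 200 in pkl, 194 in clf and 183 in lhp1, against 192 in WT. In WT this was 6.59% of the window loci, where 61.3% of other loci reached 1 FPKM. Among loci at 1 FPKM or more, the level in the windows was near that of other loci. The median over loci at 1 FPKM or more was 14.3 FPKM in pkl, 15.5 in clf, 16.2 in lhp1 and 15.0 in WT, beside 16.2 FPKM over other loci in WT. Weaker loci made up a larger part of the loci above 0 in the windows than elsewhere. Of 395 window loci above 0 in WT, 131 were under 0.1 FPKM and 72 from 0.1 to under 1 FPKM. Of 21646 other loci above 0 in WT, 1358 and 2595 were. As shares of all loci, zeros included, these 2 classes held 4.50% and 2.47% in the windows and 4.70% and 8.99% elsewhere. The window loci summed to 9954 FPKM in pkl, 9374 in clf and 9321 in lhp1, against 9978 in WT, which was 1.01%, 0.945% and 1.02%, against 1.04%, of each genotype's total over all loci. The total in clf included 1 unnamed locus of 150 bases outside the windows at 75607 FPKM, which was listed at 0 in pkl, lhp1 and WT, and without it the window share in clf was 1.02%. These data come from whole seedlings, where fewer cells of a type and less RNA per cell cannot be told apart.

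**Figure D1:**
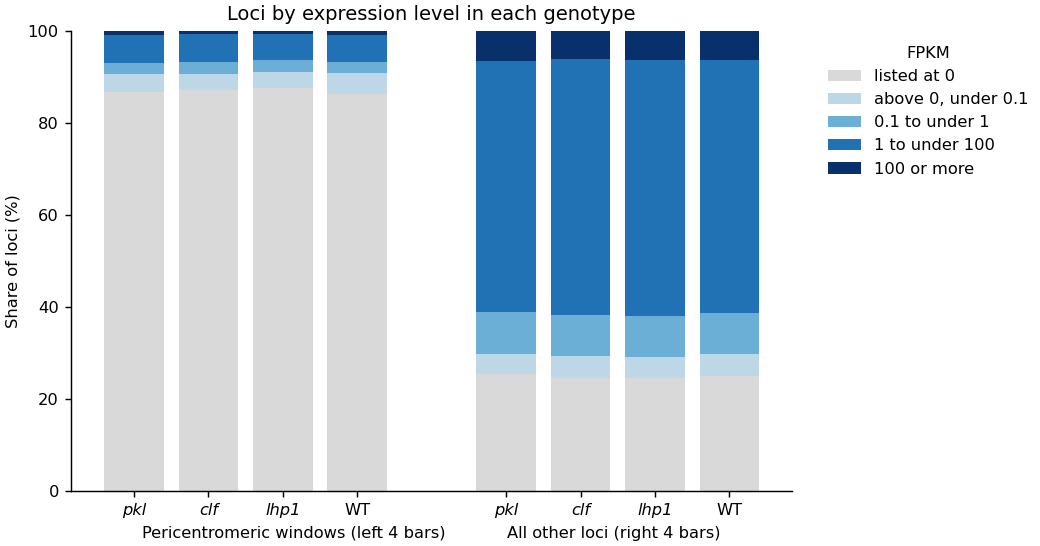
Share of loci (%, vertical axis) in 5 classes of FPKM in pkl, clf, lhp1 and WT, for the 2912 loci of the pericentromeric windows (left bars) and the 28876 other loci (right bars). The class listed at 0 holds 86.7%, 87.2%, 87.6% and 86.4% of window loci in pkl, clf, lhp1 and WT, and 24.5% to 25.4% of the other loci.

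The label of the set was checked against what the annotation says is there. By RefSeq class 2246 window loci were pseudogenes, 542 protein-coding genes, 15 non-coding RNA genes and 17 tRNA or rRNA genes. A further 29 held several genes, 18 had no gene name and 45 carried identifiers that matched no reference gene. Of 28876 other loci, 22455 were protein-coding and 2465 pseudogenes. Among the window pseudogenes 2013 (89.6%) were listed at 0 in every genotype, beside 72.9% of pseudogenes elsewhere. Among window protein-coding genes 317 (58.5%) were, beside 12.6% elsewhere. Names or notes that mention transposons were carried by 19 window loci, of which 16 were listed at 0 in all 4 genotypes. The 3 that were transcribed are described with the called loci. This is a count of words in the annotation and not of transposons. Pseudogenes annotated only as uncharacterized, such as AT5G35935, may include transposons that it misses.

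Window loci were also more repeated in sequence. The median share of a locus' 31-base runs found once in the reference genome was 77.9% in the windows and 99.96% in other nuclear loci. It was 74.7% for window loci listed at 0 in every genotype and 99.95% for those at 1 FPKM or more in WT. The counting of reads with several matching places is not stated in the sources at hand, so a value of 0 at a repeated locus may be a failed estimate. All 17 tRNA or rRNA loci of the windows were at 0 in every genotype, but most lie in the mitochondrial insertion on chromosome 2 described below. The ribosomal RNA locus of chromosome 3, counted with the loci of several genes, was expressed and is also described below. Outside the windows, zeros also stood at genes that every cell uses. Listed at 0 in every genotype were 563 of 566 tRNA or rRNA loci there and all 141 named mitochondrial genome loci. A listed 0 is therefore not read here as an absence of transcript. The part of repeated sequence in the count of silent loci was not tested.

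Hardly any pericentromeric locus that was silent in WT reached expression in a mutant. With silent defined as under 0.1 FPKM in WT and expressed as at least 1 FPKM in the mutant, 2648 window loci (90.9%) were silent in WT. Of these, 4 were expressed in pkl (0.151%), none in clf and 2 in lhp1 (0.0755%). Over all loci silent in WT the shares were 0.445% in pkl, 0.498% in clf and 0.712% in lhp1. Among the 8588 silent loci outside the windows the counts were 46 in pkl (0.536%), 56 in clf (0.652%) and 78 in lhp1 (0.908%). Counted once each, 6 window loci and 137 other loci were silent in WT and expressed in at least 1 mutant, whereas 2604 window loci and 7539 other loci were silent in all 4 genotypes. None of the 6 was called by the deposited test. A locus is called here where the authors' status was OK and their deposited q-value was under 0.05. A locus with any other status is given as not tested. The shares are counts without a test, since each genotype has 1 value and neighbouring loci are not replicates.

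The class of locus moved with this share. Pseudogenes made up 2210 of the 2648 silent window loci, and 1, 0 and 0 of them were expressed in pkl, clf and lhp1, where 4, 2 and 1 of 2225 silent pseudogenes elsewhere were. Of 360 silent protein-coding window loci, 3 were expressed in pkl (0.833%), none in clf and 1 in lhp1 (0.278%). Of 4909 such loci elsewhere, 39 were expressed in pkl (0.794%), 45 in clf (0.917%) and 71 in lhp1 (1.45%). The share in pkl was thus close in and outside the windows once protein-coding genes were taken alone, whereas the shares in clf and lhp1 were smaller in the windows. These class shares rest on 0 to 3 window loci.

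**Figure D2:**
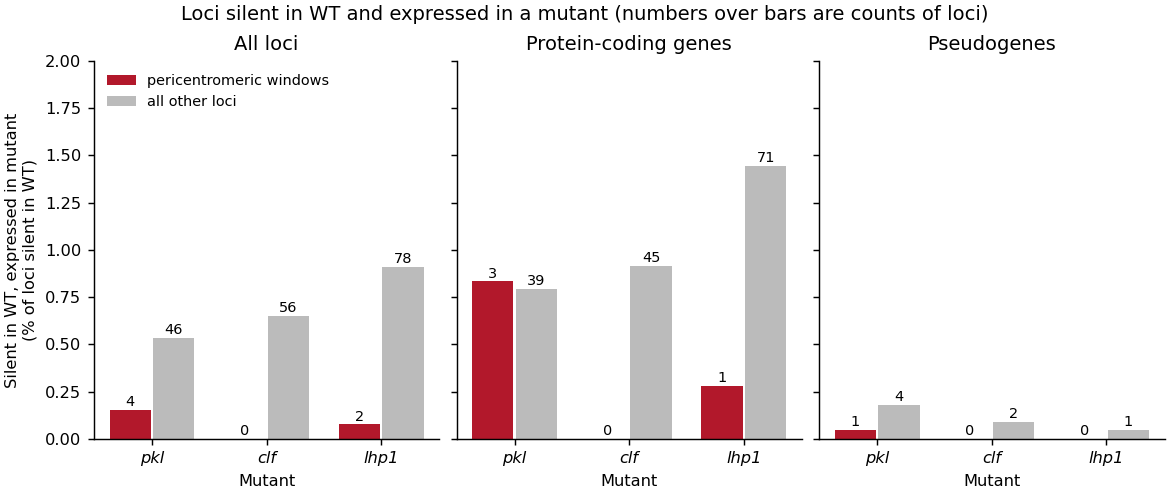
Loci under 0.1 FPKM in WT and at 1 FPKM or more in pkl, clf or lhp1, as a percentage of loci silent in WT (vertical axis), for the pericentromeric windows (red) and all other loci (grey). Panels show all loci, protein-coding genes and pseudogenes, and the numbers over the bars are counts of loci, from 0 to 4 in the windows.

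The 6 loci were all listed at 0 FPKM in WT, and 4 of them were expressed in pkl. AT5G35510 stood at 12.1 FPKM in pkl and at 0 in clf, lhp1 and WT, the highest mutant value among all window loci silent in WT. Its status was not OK, so it carries no test. It is 207 bases long, against a median of 1836 over window loci. FPKM is scaled by length, so each fragment weighs more at a short locus, and the fragments behind this value are unknown. The same limit applies to AT1G41875, AT5G36280 and AT3G42181 below, of 234, 228 and 219 bases. LCR50 (AT2G12465, chromosome 2, 5055525 to 5055872), which encodes a small secreted cysteine-rich protein of a family that resembles pollen coat proteins, stood at 4.97 FPKM in pkl and at 0 in clf, lhp1 and WT. In the authors' deposited table its q was 0.0732, short of the threshold. AT2G10920 (chromosome 2, 4301883 to 4306083), an uncharacterized protein-coding gene, had 1.47 FPKM in pkl and 0 in clf, lhp1 and WT, untested. The pseudogene AT3G42090 (chromosome 3, 14273625 to 14274904) had 1.33 FPKM in pkl and 0 in clf, lhp1 and WT, with a q of 0.105 in the authors' deposited table. In each of these 4 loci pkl stood alone, and each lay on chromosome 2, 3 or 5.

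The other 2 loci were expressed in lhp1. The unannotated AT1G41875 had 1.97 FPKM in lhp1 and 0 in pkl, clf and WT, and was not tested. AT5G33355 had 0 FPKM in pkl, 0.344 in clf and 1.45 in lhp1, against 0 in WT, with a q of 0.0912 in the authors' deposited table for lhp1. Only 53.2% of its 31-base runs were found once in the genome, and 182 of its runs recurred on chromosome 3 between 22139772 and 22140127. That place lies in AT3G59930, a locus with 34.0 FPKM in pkl, 3.22 in clf and 6.72 in lhp1, against 6.50 in WT. AT3G59930 rose in pkl and fell in clf, while AT5G33355 was called in no mutant. The division of shared reads between these loci was not tested.

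A few short or weak loci sat next to the limits. The window loci nearest the ceiling in WT were AT4G07830 at 0.0990 FPKM and AT2G07827 at 0.102 FPKM. Just under the floor in pkl was an unnamed locus on chromosome 3 (15081195 to 15082655) at 0.939 FPKM, against 0.0891 in WT, and just over it was AT3G42090. The acyl carrier protein gene AT5G36280 (228 bases) came nearest in clf, at 0.924 FPKM with 0 in pkl, lhp1 and WT. In lhp1 the next below AT5G33355 was the F-box gene AT2G07140, at 0.307 FPKM, against 0.0627 in WT. With WT ceilings of exactly 0, 0.05, 0.1 or 0.5 FPKM and mutant floors of 0.5, 1 or 2 FPKM, the share in the windows ran from 0 to 0.778% and was below that of other loci, 0.173% to 5.73%, in every combination and mutant.

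Switching in the opposite direction was also rare. Of 192 window loci at 1 FPKM or more in WT, 1 was under 0.1 FPKM in pkl, 1 in clf and 1 in lhp1 (0.521% each), where the shares over all loci expressed in WT were 0.106%, 0.0783% and 0.196%. Elsewhere 18, 13 and 34 of 17693 loci did so. The window locus was AT3G42181 in each case, a pseudogene of 219 bases on chromosome 3 (14350964 to 14351182), listed at 0 in pkl, clf and lhp1 and at 2.43 FPKM in WT, and it was not tested. Because the comparisons share the WT value, its recurrence is 1 observation and not 3. At the finest level, 55, 51 and 44 of 2517 window loci listed at 0 in WT were above 0 in pkl, clf and lhp1, while 62, 74 and 77 of 395 window loci above 0 in WT were listed at 0. The shares that gained a value were 2.19%, 2.03% and 1.75% in the windows beside 7.5%, 9.0% and 9.3% of 7230 other loci listed at 0 in WT. Those that lost it were 15.7%, 18.7% and 19.5% in the windows beside 3.04%, 2.29% and 2.57% of 21646 other loci. The loci that could lose a value differed in level. In WT 131 of the 395 window loci above 0 were under 0.1 FPKM, against 1358 of the 21646 other loci. The part of these low values in the losses was not tested.

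A pair of called changes began from silence without reaching 1 FPKM. CDR1 (AT5G33340, chromosome 5, 12594467 to 12595952), an aspartyl protease gene known from disease resistance, rose to 0.630 FPKM in pkl and had 0.0111 in clf and 0.0562 in lhp1, against 0 in WT (q = 0.000661 for pkl in the authors' deposited table). The cytochrome P450 pseudogene CYP79A4P (AT5G35920) rose to 0.593 FPKM in pkl and was at 0 in clf, lhp1 and WT (q = 0.00856 for pkl in the authors' deposited table). These 2 were 0.0755% of the silent window loci, and no such call was made in clf or lhp1. Outside the windows, 16, 11 and 24 loci silent in WT were called higher in pkl, clf and lhp1 and stayed under 1 FPKM, which was 0.186%, 0.128% and 0.279% of the silent loci there.

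**Figure D3:**
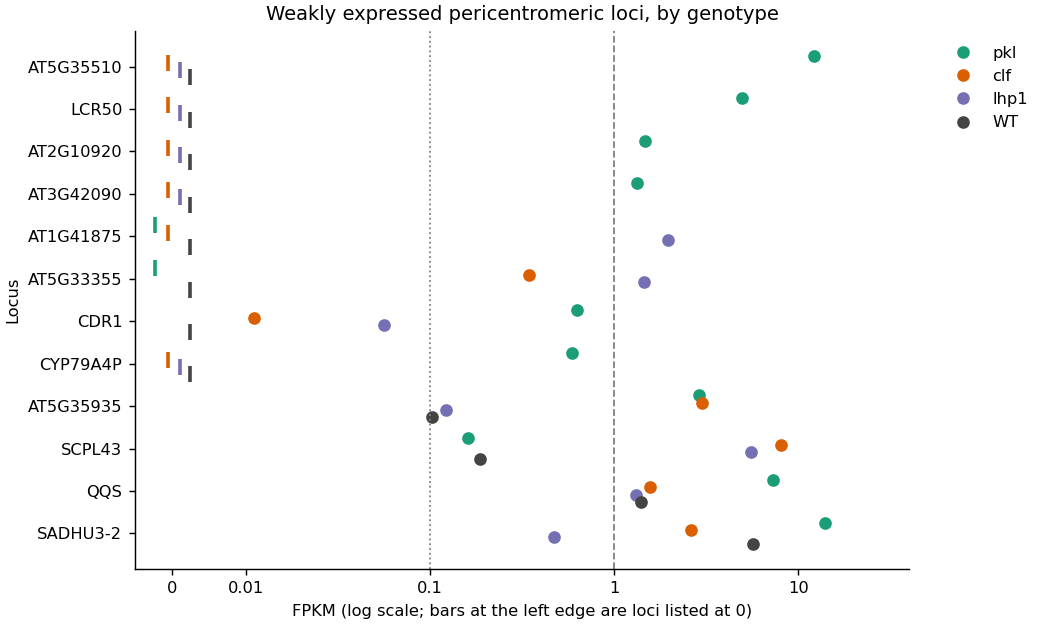
FPKM (horizontal axis, log scale) of 12 weakly expressed pericentromeric loci in pkl, clf, lhp1 and WT, with short bars at the left edge for loci listed at 0 and vertical lines at 0.1 and 1 FPKM. The first 6 loci were silent in WT and at 1.33 to 12.1 FPKM in 1 mutant, while AT5G35935 stood just over the silent ceiling in WT at 0.102 FPKM and reached 2.90 in pkl and 3.01 in clf.

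Among the loci the authors tested, called changes in the windows were near the share over all tested loci in pkl, and below it in clf and lhp1. In clf and lhp1 the share called higher was below that of all tested loci and the share called lower was above it. No test of these shares was run. The authors' test covered 239 window loci in pkl (8.21%), 231 in clf (7.93%) and 226 in lhp1 (7.76%), against 66.7%, 66.8% and 67.3% of other loci. All other window loci had a status other than OK, so the tested loci are not a sample of the windows. In pkl 17 were called higher (7.11% of those tested, where 6.73% of all tested loci were) and 15 lower (6.28%, against 6.74%). In clf 6 were called higher (2.60%, against 7.11%) and 17 lower (7.36%, against 5.28%). In lhp1 16 were called higher (7.08%, against 11.1%) and 28 lower (12.4%, against 10.6%). In either direction the shares were 13.4%, 9.96% and 19.5% in the windows beside 13.5%, 12.4% and 21.7% of all tested loci. The median log2((FPKM + 1)/(WT FPKM + 1)) over window loci at 1 FPKM or more in either group was -0.00 in pkl (208 loci), -0.04 in clf (200 loci) and -0.04 in lhp1 (198 loci), beside 0.01, -0.01 and 0.03 over other loci. Changes of at least 2-fold were called upward at 11, 4 and 4 window loci in pkl, clf and lhp1, which was 4.60%, 1.73% and 1.77% of those tested, beside 2.01%, 2.54% and 4.14% of all tested loci. They were called downward at 5, 6 and 14, which was 2.09%, 2.60% and 6.19%, beside 2.27%, 1.24% and 3.26%.

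**Figure D4:**
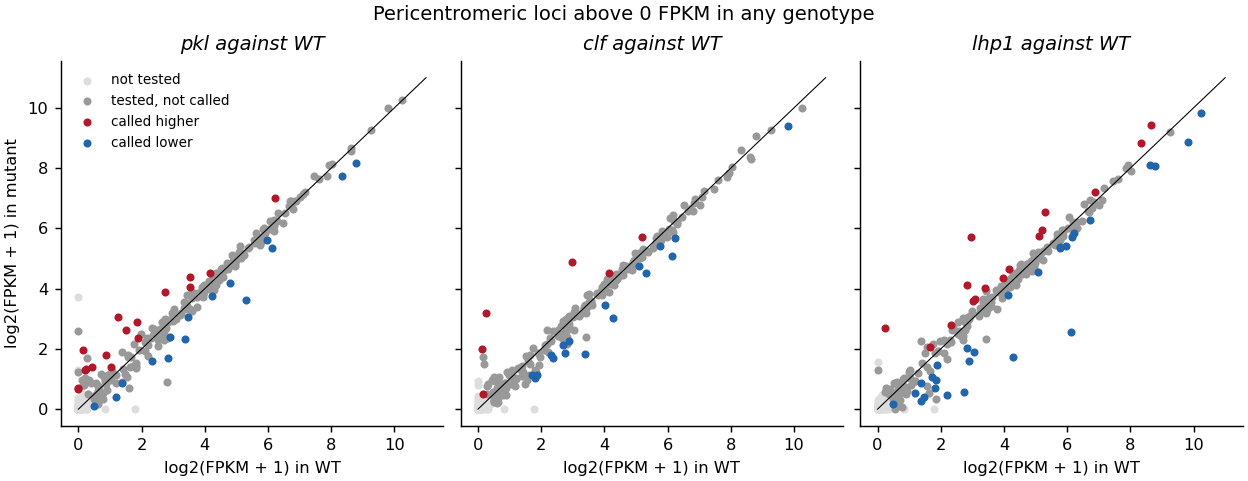
log2(FPKM + 1) in pkl, clf or lhp1 (vertical axes) against WT (horizontal axes) for the 515 pericentromeric loci above 0 FPKM in any genotype, coloured by the authors' deposited test, with the diagonal of equal values. Called loci number 17 higher and 15 lower in pkl, 6 and 17 in clf and 16 and 28 in lhp1, and most loci lie along the diagonal.

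In all 66 window loci were called in at least 1 comparison. Of these, 47 were protein-coding genes, 10 pseudogenes, 5 loci of several genes, 3 loci without a name and 1 a non-coding RNA. The classes differed in how many loci were tested. In pkl 9 of 172 tested protein-coding window genes were called higher and 11 lower, and 4 and 3 of 29 pseudogenes. In clf these were 3 and 14 of 170, and 2 and 3 of 27. In lhp1 they were 13 and 20 of 167, and 2 and 4 of 25. Elsewhere 178, 173 and 173 pseudogenes were tested in pkl, clf and lhp1, with 22, 16 and 15 higher and 8, 10 and 17 lower. The largest rises among loci above 0 in both genotypes were at 2 that stood near the silent ceiling in WT. The pseudogene AT5G35935, which the reference annotates no further, rose to 2.90 FPKM in pkl and 3.01 in clf, against 0.102 in WT (log2 fold change 4.82 and 4.88). It stood at 0.122 FPKM in lhp1, where it was not tested. SCPL43, a serine carboxypeptidase-like gene, rose to 8.04 FPKM in clf and 5.54 in lhp1, against 0.186 in WT (log2 fold change 5.43 and 4.89), and stood at 0.161 FPKM in pkl. Both thus split the mutants, AT5G35935 into pkl and clf against lhp1, and SCPL43 into clf and lhp1 against pkl. The difference between mutants was not tested.

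Of the 19 window loci whose names or notes mention transposons, 3 were at 1 FPKM or more in WT, and 1 of these was called. SADHU3-2 is a member of the Sadhu family of non-coding retroelements, and its allele is methylated and silenced in some natural accessions. It rose to 14.0 FPKM in pkl, fell to 2.61 in clf and fell to 0.475 in lhp1, against 5.70 in WT (log2 fold change 1.29, -1.13 and -3.59; q = 0.000661, 0.00500 and 0.000661 in the authors' deposited tables). SADHU1-1 (AT2G10410) stood at 280 FPKM in pkl, 259 in clf and 241 in lhp1, against 261 in WT, and was not called. DAYSLEEPER (AT3G42170), a domesticated hAT transposase gene needed for normal growth, stood at 27.5 FPKM in pkl, 35.7 in clf and 30.7 in lhp1, against 30.0 in WT, and was not called. Among further pseudogenes AT2G06950 rose in every mutant, to 22.1 FPKM in pkl, 22.1 in clf and 24.3 in lhp1, against 16.8 in WT. AT3G42806 fell to 2.03 FPKM in pkl and 2.50 in clf, and stood at 3.72 in lhp1, against 3.99 in WT. The non-coding RNA AT2G07042 fell to 0.396 FPKM in lhp1 and stood at 2.43 in pkl and 2.73 in clf, against 3.60 in WT. Another locus with the same identifier and range had 0.264 FPKM in pkl, 0.623 in clf and 0.0548 in lhp1, against 0.703 in WT, and was not called.

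Among loci with at least 2 FPKM in the higher genotype, the next largest rises in pkl were at an orphan gene, a methionine-related gene and 2 loci of little known function. QQS (AT3G30720), an orphan gene of Arabidopsis that affects starch content, rose to 7.33 FPKM in pkl and stood at 1.56 in clf and 1.32 in lhp1, against 1.41 in WT (log2 fold change 2.38 in pkl). MRU1 (AT5G35490), named for its rise in a mutant that accumulates methionine, rose to 6.36 FPKM in pkl, fell to 1.17 in clf and fell to 0.958 in lhp1, against 2.62 in WT. MRU1 was thus above WT in pkl alone and below it in clf and lhp1. AT5G35926, which encodes a protein with RNI-like and FBD-like domains, rose to 5.17 FPKM in pkl and stood at 2.39 in clf and 2.61 in lhp1, against 1.86 in WT. The locus that joins AT5G34790, AT5G34795 and AT5G34800 rose to 2.46 FPKM in pkl and stood at 0.380 in clf and 0.520 in lhp1, against 0.829 in WT. Folds above those of MRU1, AT5G35926 and this locus also stood below 2 FPKM, at 3 loci picked after their values were seen. The locus of AT3G32920 and AT3G32925 rose to 1.49 FPKM in pkl and stood at 0.208 in clf and 0.0767 in lhp1, against 0.156 in WT (log2 fold change 3.25 in pkl). An unnamed locus on chromosome 4 (4971273 to 4972251) rose to 1.49 FPKM in pkl and stood at 0.166 in clf and 0.493 in lhp1, against 0.170 in WT. Another unnamed locus there (4842715 to 4843788) rose to 1.61 FPKM in pkl and stood at 0.196 in clf and 0.158 in lhp1, against 0.353 in WT.

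Among loci with at least 2 FPKM in the higher genotype, the largest falls in pkl included genes that rose in lhp1. SUS4 (AT3G43190), a sucrose synthase, fell to 11.3 FPKM in pkl and 22.1 in clf and rose to 92.1 in lhp1, against 38.7 in WT (log2 fold change -1.78, -0.81 and 1.25). AT4G07820, which encodes a CAP superfamily protein, fell to 2.24 FPKM in pkl and rose to 16.2 in lhp1, against 6.09 in WT, with 3.50 in clf. The lectin gene AT5G35940 fell to 4.06 FPKM in pkl and 2.55 in clf and rose to 15.3 in lhp1, against 9.47 in WT. Each of these 3 genes stood below WT in pkl and above it in lhp1. AT4G07950, for a subunit of DNA-directed RNA polymerase, fell to 17.4 FPKM in pkl and stood at 24.0 in clf and 28.1 in lhp1, against 26.9 in WT. XTH4 (AT2G06850), a xyloglucan endotransglucosylase of the cell wall, fell to 286 FPKM in pkl and 266 in lhp1 and stood at 530 in clf, against 442 in WT. Below 2 FPKM, AT2G11150 and AT3G32030, picked after their values were seen, fell more in pkl than SUS4 and also fell in lhp1. AT2G11150 fell to 0.0839 FPKM in pkl and 0.130 in lhp1 and stood at 0.215 in clf, against 0.415 in WT. AT3G32030 fell to 0.316 FPKM in pkl and 0.460 in lhp1 and stood at 0.982 in clf, against 1.29 in WT.

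MGDC (AT2G11810), also called MGD3, makes galactolipids under phosphate starvation and fell in every mutant. It stood at 39.8 FPKM in pkl, 32.9 in clf and 4.94 in lhp1, against 68.9 in WT (log2 fold change -0.79, -1.07 and -3.80; q = 0.000661 in each of the authors' deposited tables). The value in lhp1 was the lowest relative to WT of any called window locus that passed the naming rule. AT3G43110, an uncharacterized gene, fell to 7.09 FPKM in clf and 2.31 in lhp1 and stood at 14.4 in pkl, against 18.5 in WT. AT3G42800 fell to 1.06 FPKM in clf and 0.612 in lhp1 and stood at 1.91 in pkl, against 2.53 in WT. PGLP1 (AT5G36700), the photorespiratory phosphoglycolate phosphatase, fell to 3.81 FPKM in clf and 2.03 in lhp1 and stood at 6.79 in pkl, against 6.44 in WT. No 31-base run of PGLP1 is unique in the genome. AT5G36790, another locus with no unique run, stood at 7.43 FPKM in pkl and 5.17 in clf and fell to 2.76 in lhp1, against 7.22 in WT, so that reads of the pair cannot be assigned with certainty.

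Further rises in clf and lhp1 reached higher levels than that of SCPL43. The locus of AT5G33365 and AT5G33370, a GDSL-like lipase gene, rose to 28.5 FPKM in clf and 51.1 in lhp1 and stood at 8.03 in pkl, against 6.80 in WT. AT5G35732, an uncharacterized gene, rose to 51.3 FPKM in clf and 60.0 in lhp1 and stood at 33.8 in pkl, against 35.5 in WT. The peroxidase gene AT3G32980 rose to 691 FPKM in lhp1 and stood at 382 in pkl and 315 in clf, against 397 in WT.

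The most highly expressed window loci showed that the windows also hold genes expressed at high levels in every genotype. GS2 (AT5G35630), the chloroplast glutamine synthetase, stood at 1228 FPKM in pkl and 1025 in clf and fell to 905 in lhp1, against 1206 in WT. AT2G10940, which encodes a lipid-transfer superfamily protein, stood at 1013 FPKM in pkl and fell to 680 in clf and 462 in lhp1, against 897 in WT. The locus of the ribosomal RNA genes AT3G41761, AT3G41768 and AT3G41979 stood at 610 FPKM in pkl, 619 in clf and 593 in lhp1, against 611 in WT, and only 6.14% of its 31-base runs were unique. Differences at the ribosomal locus were not called in any comparison.

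The insertion of mitochondrial DNA in the pericentromere of chromosome 2 was taken apart because its sequence is also in the mitochondrial genome. Of 126 window loci in its identifier range, 97 had at least 90% of their 31-base runs in the mitochondrial genome, and these lie between 3239657 and 3507323. A further 24 held no mitochondrial run and are left out here with the 5 between. The 97 loci summed to 19.2 FPKM in pkl, 20.2 in clf and 12.8 in lhp1, against 26.3 in WT. Of 17, 19 and 17 tested in pkl, clf and lhp1 no locus was called higher. Called lower were 1 (5.88%), 0 and 3 (17.6%), beside 6.74%, 5.28% and 10.6% of all tested loci. The median log2((FPKM + 1)/(WT FPKM + 1)) was -0.33 in pkl, -0.28 in clf and -0.66 in lhp1, over 9, 9 and 8 loci. In the mitochondrial genome itself, where all named loci were listed at 0, 58 unnamed loci summed to 81.6 FPKM in pkl, 82.0 in clf and 81.0 in lhp1, against 88.8 in WT. Of 23 of these unnamed loci tested in each mutant, none was called higher. Called lower were 2 in pkl (8.70%), 4 in clf (17.4%) and 9 in lhp1 (39.1%). Their median, taken in the same way, was -0.20 in pkl, -0.10 in clf and -0.27 in lhp1, over 6 loci. Falls were thus not particular to the insertion. None of the 126 was among the 6 loci silent in WT and expressed in a mutant.

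Expression varied along and between the windows. At 1 FPKM or more in WT were 2.70% of the loci on chromosome 1, 6.23% on chromosome 2, 5.37% on chromosome 3, 4.68% on chromosome 4 and 10.4% on chromosome 5. By distance from the middle of a window the share was 3.99% of 953 loci within 0.5 Mb, 6.48% of 1034 loci from 0.5 to 1 Mb, 10.5% of 686 loci from 1 to 1.5 Mb and 6.28% of 239 loci farther out. The windows differ in width, so loci farther out come from fewer chromosomes. Position and chromosome can therefore not be told apart in these shares. Calls were spread over the same windows. In pkl 0, 1, 4, 4 and 8 loci were called higher and 0, 6, 6, 2 and 1 lower on chromosomes 1 to 5. The loci tested there in pkl numbered 6, 58, 50, 26 and 99. The shares called higher were 1.72%, 8%, 15.4% and 8.08% of those tested on chromosomes 2 to 5, against 6.73% of all tested loci. The shares called lower were 10.3%, 12%, 7.69% and 1.01%, against 6.74%. In clf the counts were 0, 2, 0, 0 and 4 higher and 1, 3, 8, 0 and 5 lower, of 6, 60, 47, 24 and 94 tested. On chromosomes 2 to 5 these were 3.33%, 0, 0 and 4.26% higher, against 7.11% of all tested loci. Called lower were 5%, 17.02%, 0 and 5.32%, against 5.28%. In lhp1 the counts were 0, 3, 4, 3 and 6 higher and 0, 9, 6, 1 and 12 lower. The loci tested there in lhp1 numbered 6, 57, 46, 25 and 92. On chromosomes 2 to 5 these were 5.26%, 8.70%, 12% and 6.52% higher, against 11.1% of all tested loci. Called lower were 15.8%, 13.04%, 4% and 13.04%, against 10.6%. Differences between the chromosomes were not tested. On chromosome 1 only 6 loci were tested in each mutant, against 24 to 99 on each of the other chromosomes, and its 1 call in clf was 16.7% of them.

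**Figure D5:**
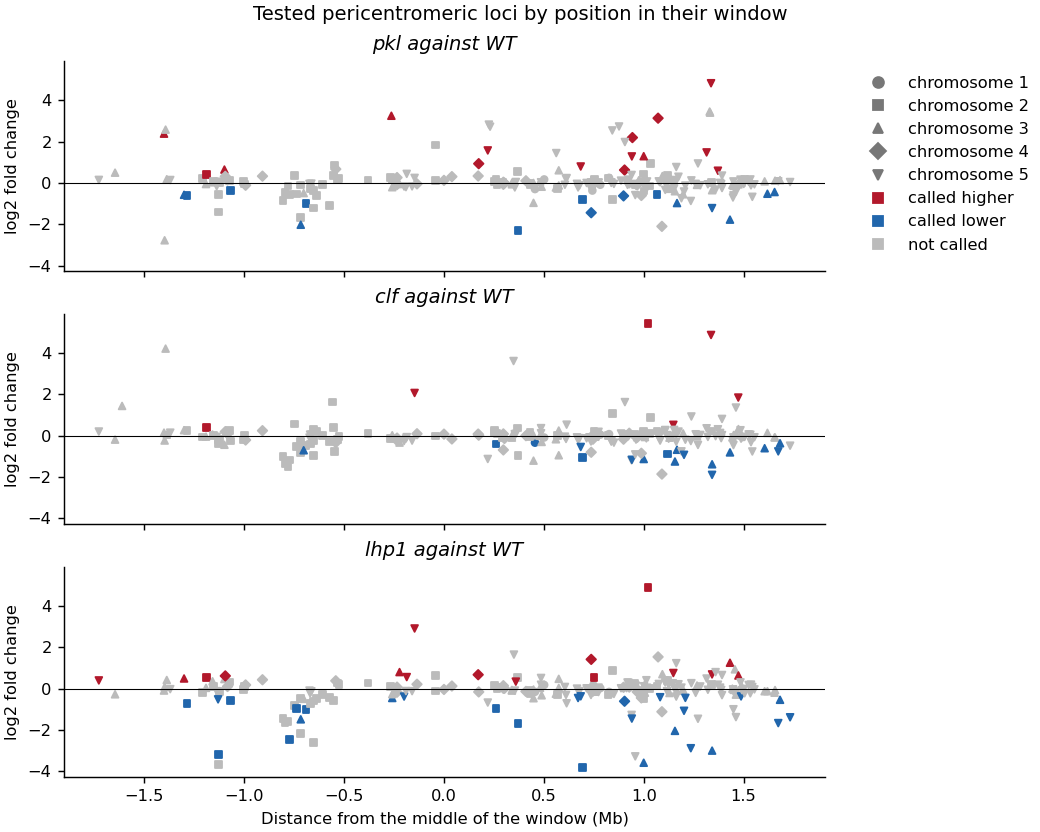
log2 fold change of each mutant over WT (vertical axes) for tested pericentromeric loci above 0 in both genotypes, by distance in Mb from the middle of their window (horizontal axis). Marker shapes give the chromosome and colours the authors' deposited call, and chromosome 1, with 6 loci tested in each mutant, carries 1 call in all, lower in clf.

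Genes that establish or remove heterochromatic silencing, most of which lie outside the windows, were read beside these values. Of 30 genes listed, 29 had a locus of their own and 28 were tested. In pkl 2 rose and 3 fell, in clf 2 rose and none fell, and in lhp1 5 rose and none fell. Those called were 17.9%, 7.14% and 17.9% of the tested genes in pkl, clf and lhp1, beside 13.5%, 12.4% and 21.7% of all tested loci. The median log2((FPKM + 1)/(WT FPKM + 1)) over the 29 genes, with no limit on FPKM, was 0.07 in pkl, 0.07 in clf and 0.12 in lhp1. Over all loci at 1 FPKM or more in either group it was 0.01, -0.01 and 0.03, so these sets differ in that limit. ROS1, a DNA glycosylase that removes methylcytosine, fell to 2.53 FPKM in pkl and rose to 21.4 in clf and 14.7 in lhp1, against 10.6 in WT (log2 fold change -2.07, 1.01 and 0.47). AGO6, an Argonaute of RNA-directed DNA methylation, fell to 0.380 FPKM in pkl and stood at 0.802 in clf and 0.873 in lhp1, against 0.805 in WT. The H3K9 demethylase gene IBM1 fell to 5.87 FPKM in pkl and stood at 9.35 in clf and 9.21 in lhp1, against 9.92 in WT. DDM1, a remodeller needed for heterochromatic methylation, rose to 8.23 FPKM in lhp1 and stood at 5.81 in pkl and 5.44 in clf, against 4.78 in WT. VIM3, which binds methylated DNA, rose to 9.76 FPKM in pkl and 10.2 in lhp1 and stood at 6.70 in clf, against 6.16 in WT, and VIM1 rose to 17.4 FPKM in clf and 20.9 in lhp1, against 13.4 in WT. MET1, the maintenance methyltransferase, was not called, at 11.8 FPKM in pkl, 10.2 in clf and 11.2 in lhp1, against 10.1 in WT. Whether these genes have a part in the window values was not tested.

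The labels and tissue were checked on genes outside the windows. PKL fell to 6.83 FPKM in pkl, against 20.8 in WT, and LHP1 was listed at 0 in lhp1, against 12.1 in WT. CLF stood at 0.264 FPKM in clf, against 8.37 in WT, with a q of 0.0520 in the authors' deposited table, short of the threshold. All 4 leaf markers with a locus of their own and all 5 root markers were above 0 in every genotype, as whole seedlings hold both. No leaf marker was called in any mutant. Of the root markers EXPA7 rose in pkl, CASP1, COBL9 and PLT2 fell in clf, and PYK10 rose in lhp1. The 7 pollen and anther markers with a locus summed to 0.197 FPKM in pkl, 0.0319 in clf and 0.109 in lhp1, against 0.0176 in WT, at or near 0 in each. All 5 floral organ genes listed rose in clf and in lhp1, and their sum was 226 FPKM in clf and 326 in lhp1, against 11.9 in WT. In pkl it was 7.99 FPKM, and 1 gene fell. Of the endosperm genes PHE1 rose to 4.60 FPKM in pkl, against 0.174 in WT, and FWA was at 0.0296 FPKM in clf and 0 in pkl and lhp1, against 0.0147 in WT. The part of these cell identities in the window values was not tested.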

How the data were processed

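Whole-seedling RNA was sequenced in 12 libraries, 3 per genotype by title. Per the submitters' processing notes, the tools were TopHat, Cufflinks 2.1.1 and Cuffdiff 2.1.1 and the build TAIR10; these sources do not give the TopHat version, strand setting, library normalisation or treatment of reads with several matches. FPKM was deposited by the authors, 1 value per genotype and locus, and per the file headers the tables are gene-level Cuffdiff output. How 3 libraries entered each value is not stated there. Each p-value and q-value was used as deposited; the number of tests behind q is not stated. The WT values were the same in all tables. Depth cannot be read from FPKM.

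Starts were moved by 1 base to count from 1. Silent was under 0.1 FPKM, expressed at least 1 FPKM, and called meant status OK with deposited q under 0.05. Fold changes were computed from FPKM, medians with a pseudocount of 1 over loci with at least 1 FPKM in either group. The median over silencing genes had no such limit. No further test was run, since the tables used hold 1 value per genotype. Named were, per mutant, up to 8 loci silent in WT and expressed in the mutant, the 6 largest called rises and falls above 0 in both genotypes with at least 2 FPKM in the higher, up to 4 loci expressed in WT and silent in the mutant, the 5 loci highest in WT, loci next to the thresholds, up to 6 silencing genes and the mutated genes. SADHU1-1, DAYSLEEPER, AT5G36790, AT3G59930, CDR1, CYP79A4P, AT2G11150, AT3G32030, 3 further loci that rose in pkl and further silencing genes and markers were added after their values were seen. The windows, lists and members were chosen with earlier results of these data known.

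Products, classes and sequences came from RefSeq TAIR10.1, which matched 2886 of 2931 window identifiers. Of 28809 single-gene nuclear loci matched by identifier, 28808 overlapped the reference gene of that name. Overlapping and antisense genes are uncertain, and 124 window loci share their range with another. Python 3.11.15, numpy 2.4.6, pandas 2.3.3 and matplotlib 3.10.9 were used, and the counting was tested on simulated data.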

Additional observations from a re-analysis of the deposited data

How the results depend on the processing

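For 12 counts and medians, 192 alternative settings were tried; 156 left the value within a factor of 1.5 for counts or 0.1 for log2 medians, and 36 moved it. For silent loci expressed in a mutant (4 in pkl, 0 in clf, 2 in lhp1), a WT ceiling of 0.5 FPKM gave 10 in pkl and 5 in clf. A mutant floor of 0.5 FPKM gave 7 in pkl and 2 in clf, and one of 2 FPKM gave 2 in pkl and 0 in lhp1. Requiring a call gave 0 in pkl and in lhp1. Windows widened by 0.5 Mb gave 4 in clf and 6 in lhp1. Without the window of chromosome 2 there were 2 in pkl. In lhp1, 1 was left without chromosome 1, without chromosome 5, among loci of at least 300 bases, and among loci with at least 90% unique 31-base runs.

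For called loci, unadjusted p under 0.05 gave 28 higher and 26 lower in pkl, 16 and 29 in clf and 33 higher in lhp1. A q under 0.01 gave 3 higher and 11 lower in clf and 18 lower in lhp1. Windows widened by 0.5 Mb gave 38 higher and 47 lower in pkl, 29 and 37 in clf and 55 and 63 in lhp1. Without chromosome 5 there were 9 higher in pkl, 2 higher in clf, and 10 higher and 16 lower in lhp1. Without chromosome 3 there were 9 lower in pkl and 9 lower in clf, and without chromosome 2 there were 9 lower in pkl. All alternatives for the medians stayed within 0.1.

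The limits on unique runs, and the count of other loci on the nuclear chromosomes alone, were chosen after seeing the data; for nuclear loci alone this share was 0.554% in pkl, 0.674% in clf and 0.939% in lhp1 of 8308 silent loci. No paired analysis was possible because the tables hold 1 value per genotype, and leaving out each replicate was not possible for the same reason. Without counts, the depth at which a locus would be detected is unknown.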

Other observations

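Further called window loci, picked after their values were seen, have well known products. ERD5 (AT3G30775), the proline dehydrogenase that starts proline breakdown, fell to 215 FPKM in pkl and rose to 450 in lhp1, against 320 in WT, with 386 in clf. EXT13 (AT5G35190), an extensin of the cell wall, rose to 127 FPKM in pkl and fell to 50.5 in clf and 56.8 in lhp1, against 73.6 in WT. The AP2 family gene RAP2.9 (AT4G06746) rose to 19.9 FPKM in pkl and stood at 10.7 in clf and 9.37 in lhp1, against 10.5 in WT. JAZ11 (AT3G43440), a jasmonate repressor, fell to 12.4 FPKM in pkl and stood at 19.7 in clf and 16.4 in lhp1, against 17.9 in WT.

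Among the called loci of lhp1, 4 more were picked in the same way. RPS1 (AT5G30510), a plastid ribosomal protein, fell to 273 FPKM in lhp1, against 392 in WT, with 407 in pkl and 332 in clf. HCF109 (AT5G36170), a release factor of plastid translation, fell to 41.1 FPKM in lhp1, against 53.4 in WT, with 52.0 in pkl and 48.4 in clf. G6PD1 (AT5G35790), a plastid glucose-6-phosphate dehydrogenase, fell to 50.9 FPKM in lhp1, against 69.4 in WT, with 63.5 in pkl and 60.7 in clf. PAP26 (AT5G34850), a purple acid phosphatase, rose to 147 FPKM in lhp1, against 116 in WT, with 120 in pkl and 124 in clf.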
